A study of Mus musculus with 18 samples.

Results

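The mitochondrial ribosomal protein genes described here are the 76 genes whose symbols start with Mrpl or Mrps and a number in the array's probe annotation, out of 19937 genes with a probe set of their own. Mrps6 and pseudogenes were left out, and each gene was read from its probe set with the highest mean. By symbol 48 belong to the large subunit and 28 to the small subunit. All 76 passed a filter on dim signals that kept 15711 genes. Mrpl53 is covered only by a probe set that it shares with another gene and is not among the 76.

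Total RNA of mouse embryonic fibroblasts of strain 129sv/ev was hybridised to 18 one-colour Affymetrix arrays, 3 in each of 6 groups, which carry the numbers 1, 2 and 4. Fibroblasts in which Nfat5 is knocked out (KO) were kept in hypertonic or isotonic medium without Torin1. Fibroblasts with intact Nfat5 (WT) were kept in hypertonic or isotonic medium, with or without Torin1 at 100 nM for 1 h beforehand. Torin1 inhibits the kinase mTOR, and Nfat5 encodes a transcription factor of the response to high salt. The labels name 1 KO line and 1 WT line, so a comparison of KO with WT is one of lines. Whether arrays of a group are separate cultures is not stated, so the p-values reflect the spread among these arrays alone.

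Mitochondria keep ribosomes of their own, which translate the few proteins encoded by mitochondrial DNA, all of them parts of the respiratory chain and the ATP synthase. The proteins of these ribosomes are encoded in the nucleus and imported, and some have bacterial counterparts while others occur only in mitochondria. Mammalian mitochondrial ribosomes hold more protein and less RNA than bacterial ones. Promoters of such genes are known to hold sites for ETS factors such as GABP, for NRF1 and for YY1.

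The promoters of the members were read for those motifs. The RefSeq table of windows from 250 bases before to 50 bases after a start (assembly GRCm38.p6) holds 73 windows for 67 of the 76, and 3 members have more than 1. In 56 of the 67 a window's start lies within 500 bases of the start of the annotated gene span, and in the others it lies further inside the span. The ETS motif CCGGAAG stood on either strand in 25 of 67 members (37.3%), against 9.93% of 27025 genes with a window. The YY1 motif AAGATGGC stood in 12 (17.9%), against 3.19% of genes, and the NRF1 motif GCATGCGC in 8 (11.9%), against 3.05% of genes. TATAAA was found in 5 members (7.46%) and in 15.7% of genes, and the E-box CACGTG in 5 members (7.46%) and in 8.09% of genes. At least 1 of the ETS, YY1 and NRF1 motifs was present in 15 of 27 members that fell in hypertonic KO cells and in 22 of the 40 others with a window. A match describes the letters only and is not shown to be a bound site. Stretches of 100 bases from 3 members that fell are printed 5′ to 3′. Capitals mark the ETS, YY1 and NRF1 motifs alone, on whichever strand they lie. The stretches are from Mrpl27 with an ETS motif (chr11:94653691-94653790, plus strand), Mrpl17 with an NRF1 motif (chr7:105811088-105811187, minus strand) and Mrpl51 with an ETS motif (chr6:125192100-125192199, plus strand).
Mrpl27: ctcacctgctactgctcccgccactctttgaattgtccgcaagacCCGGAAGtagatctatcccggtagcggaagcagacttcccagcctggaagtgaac
Mrpl17: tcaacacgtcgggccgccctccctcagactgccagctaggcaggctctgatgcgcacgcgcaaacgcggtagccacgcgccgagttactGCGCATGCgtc
Mrpl51: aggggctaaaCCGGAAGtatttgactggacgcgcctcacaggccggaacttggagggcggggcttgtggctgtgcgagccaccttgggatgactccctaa

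Of the 67 members, 23 (34.3%) had another gene starting within 500 bases on the opposite strand, against 10.9% of all genes. For 7 members that fell in hypertonic KO cells such a partner was measured. None of these partners was called lower by limma, 1 was higher and 6 were not called, where 17.2% of all genes were lower and 12.9% higher. Of the 7 partners 4 had a change below 0, with a median over the 7 of -0.09, and the lowest was Zfp661, the partner of Mrps5, at -0.47 (limma adjusted p = 0.135). Mrpl40 changed by -0.75 ± 0.12 (SE, limma adjusted p = 0.000223) and its partner Hira by 0.36 (limma adjusted p = 0.0534). Mrpl14 changed by -0.47 and its partner Tmem63b by 0.39 (limma adjusted p = 0.00694).

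Across arrays, 1 conflict of labels touches the KO line. Isotonic KO array 1 is a KO array by its title, but both its source name and its genotype label call it wild-type, and here it was grouped by the title. Over the 5007 genes called between KO and WT in hypertonic medium, placed so that the mean of isotonic WT arrays is 0 and that of isotonic KO arrays 2 and 4 is 1, it stood at 1.01. The WT arrays stood between -0.05 and 0.05, and the hypertonic KO arrays between 0.93 and 0.97. Nfat5 itself read 9.73 to 10.22 log2 in hypertonic KO arrays, against 10.18 to 10.77 log2 in hypertonic WT arrays, and the difference of -0.44 did not pass (limma adjusted p = 0.0503). In isotonic medium it read 9.72 to 9.83 log2 in KO and 9.94 to 10.13 log2 in WT arrays, a difference of -0.26 (limma adjusted p = 0.367). The position of its probes relative to the deletion was not given in the sources used here, so Nfat5 gave no clear check of the labels. All 10 fibroblast markers passed the filter, with mean signals of 11.87 to 11.96 log2 in hypertonic KO arrays and 10.47 to 10.82 log2 in hypertonic WT arrays. In hypertonic medium 5 of them were called higher in the KO line, where 13.8% of all genes were higher. The calls of Dcn and Col3a1 were lost without any 1 of 5 and 4 arrays (limma adjusted p up to 0.138). In isotonic medium 4 were called higher, where 7.78% of all genes were higher. Means of the epithelial, endothelial, blood and muscle markers lay between 5.99 and 7.01 log2 in all arrays. Single markers of other cell types did differ between the lines by limma. The endothelial Tek was higher in KO cells by 2.44 in hypertonic and 2.05 in isotonic medium, the epithelial Cdh1 by 0.79 and 1.72, and the muscle marker Des by 0.60 in isotonic medium, while the blood marker Csf1r was lower by 1.36 in hypertonic medium. Of these calls that of Cdh1 in hypertonic medium was lost without hypertonic KO array 2 (limma adjusted p = 0.0594). In hypertonic against isotonic KO cells Cdh1 was lower by 0.86, a call lost without isotonic KO array 1 (limma adjusted p = 0.0509). The endothelial Pecam1 was higher by 0.47, a call lost without hypertonic KO array 4 (limma adjusted p = 0.0552) or isotonic KO array 2 (0.0584). The fibroblast marker Pdgfrb was called lower, at -0.25, and lost its call without any 1 of 4 arrays (limma adjusted p of 0.0667 to 0.103). The part of these differences in the results was not tested.

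The signals of the members spanned 7.09 log2 for Mrpl44 to 11.39 log2 for Mrps21 as means over 18 arrays. The dimmest after Mrpl44, a protein of the large subunit with a ribonuclease-like fold, were Mrps12 (7.29) and Mrpl41 (7.58), and the brightest beside Mrps21 were Mrpl23 (11.28) and Mrpl10 (11.27). Such signals depend on the probes and do not rank the genes. Each array was also summarised by the median of the 76 members, each taken relative to its isotonic WT mean. The 3 hypertonic KO arrays stood at -0.19, -0.21 and -0.17, and the isotonic KO arrays at 0.15, 0.07 and -0.02. Hypertonic WT arrays stood at 0.06, 0.12 and -0.04, and isotonic WT arrays at -0.02, 0.09 and -0.05. With Torin1, hypertonic WT arrays stood at 0.10, 0.09 and -0.07 and isotonic WT arrays at -0.03, 0.04 and -0.24. The hypertonic KO arrays thus lay below every array but the isotonic Torin1 array of number 4.

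**Figure D1:**
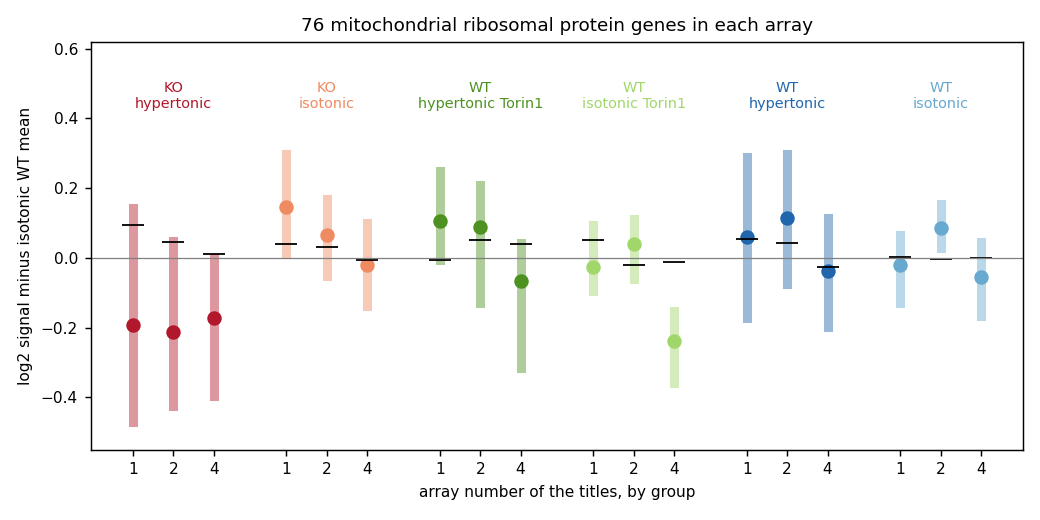
Median (points) and quartiles (bars) of the 76 members in each array, as log2 signal minus the gene's mean over isotonic WT arrays, with the same median over all genes tested as black ticks. The 3 hypertonic KO arrays have medians of -0.21 to -0.17, while the black ticks of those arrays lie at 0.01 to 0.10.

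In KO cells hypertonic medium lowered the signal of many of the mitochondrial ribosomal protein genes. limma called 29 of 76 lower and 2 higher at an adjusted p below 0.05, where 17.2% of all genes tested were lower and 12.9% higher. Over the 10129 genes in the members' range of mean signals, 23.2% were lower. The members' median change was -0.28, against 0.02 over all genes tested, and 62 of 76 had a change below 0. Arrays of the same number gave median differences of -0.37, -0.31 and -0.17 for numbers 1, 2 and 4, with 63, 63 and 56 members below 0. In 42 members all hypertonic arrays lay below all isotonic ones and in 5 above, which holds for 23.3% and 22.3% of all genes. Of the 29 lower calls 19 held without each of the 18 arrays in turn, and the 2 higher calls did not. In bulk RNA, fewer cells that express a gene and less of its RNA per cell cannot be told apart.

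Mrpl55, a mitochondria-specific protein of the large subunit, read 8.41, 8.27 and 8.38 log2 in hypertonic KO arrays, against 9.69, 9.40 and 9.42 log2 in isotonic KO arrays. The groups were far apart, and its change of -1.15 ± 0.09 (SE, limma adjusted p = 5.81e-07) was the lowest of the 76. Mrps18c, the small-subunit counterpart of the bacterial protein S18, read 7.78, 7.64 and 7.90 log2 in hypertonic and 8.78, 8.72 and 8.44 log2 in isotonic KO arrays. Its arrays did not overlap, and the change was -0.87 ± 0.15 (SE, limma adjusted p = 0.000521). Mrpl10, which anchors the flexible stalk that recruits translation factors, read 10.67, 10.71 and 10.75 log2 in hypertonic and 11.69, 11.66 and 11.36 log2 in isotonic KO arrays. All hypertonic arrays again lay below all isotonic ones, with a change of -0.85 ± 0.10 (SE, limma adjusted p = 2.05e-05).

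Among the further large falls, Mrpl40, a mitochondria-specific protein of the large subunit, read 9.51, 9.66 and 10.04 log2 in hypertonic and 10.35, 10.62 and 10.47 log2 in isotonic KO arrays. Number 4 was the highest of its hypertonic arrays, yet below every isotonic one. Mrps10 changed by -0.72 ± 0.13 (SE, limma adjusted p = 0.000462) and Mrps15 by -0.72 ± 0.12 (SE, limma adjusted p = 0.00036); both are small-subunit proteins with bacterial counterparts. Mrpl27, whose bacterial counterpart lies near the peptidyl transferase centre, changed by -0.70 ± 0.11 (SE, limma adjusted p = 0.00014). Mrpl42 changed by -0.71 ± 0.21 (SE, limma adjusted p = 0.0177), but its call was lost without isotonic KO array 1 (limma adjusted p = 0.09) or hypertonic KO array 4 (limma adjusted p = 0.0919, change -0.44). The other 21 lower calls ranged from -0.68 for Mrpl37 to -0.28 for Mrpl35. Mrpl58, a peptidyl-tRNA hydrolase built into the large subunit, was among them at -0.51, and Mrpl11, a protein of the stalk base, at -0.66.

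Mrpl46 and Mrps31, mitochondria-specific proteins, were the 2 members called higher. Mrpl46 read 8.64, 8.49 and 8.38 log2 in hypertonic and 8.21, 8.07 and 8.15 log2 in isotonic KO arrays. Its arrays did not overlap and the change was 0.36 ± 0.10 (SE, limma adjusted p = 0.0114), a call lost without hypertonic KO array 1 (limma adjusted p = 0.0617). Mrps31 read 9.02, 8.97 and 8.85 log2 in hypertonic and 8.85, 8.66 and 8.52 log2 in isotonic KO arrays, a change of 0.28 ± 0.10 (SE, limma adjusted p = 0.0491). Its highest isotonic array nearly touched the lowest hypertonic one. That call was lost when any 1 of 15 arrays was left out, with limma adjusted p of 0.0505 to 0.205.

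**Figure D2:**
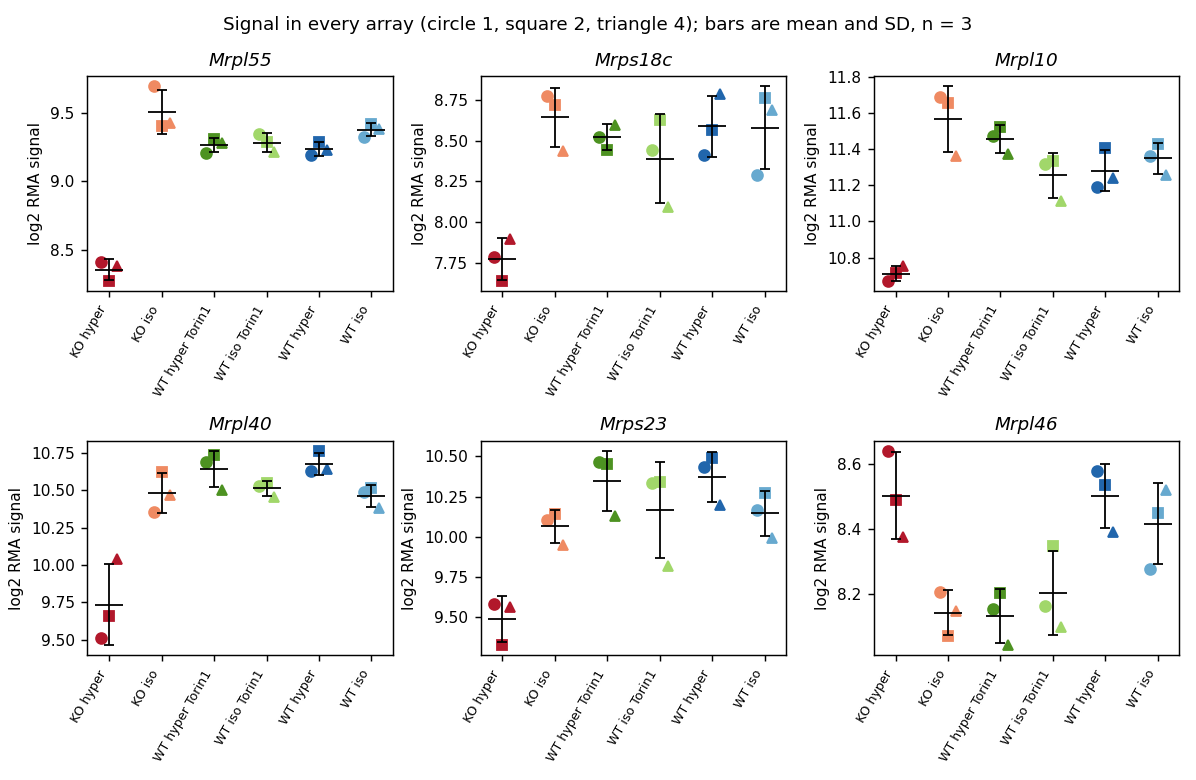
Log2 signal of 6 members in every array, with the mean and SD of 3 arrays, for the 4 largest falls in hypertonic KO cells, for Mrps23 and for Mrpl46. In the first 5 panels the hypertonic KO arrays lie below all other arrays, and in the panel of Mrpl46 they lie above the isotonic KO arrays.

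By role, the members other than Mrps36 form 4 groups, whose counts stand against 17.2% lower and 12.9% higher of all genes. Of 29 large-subunit proteins with a bacterial counterpart 12 were lower and none higher, with a median change of -0.28. Of 21 mitochondria-specific large-subunit proteins 10 were lower and 1 higher, with a median of -0.29. Of 15 small-subunit proteins with a bacterial counterpart 5 were lower and none higher (median -0.27), and of 10 mitochondria-specific ones 2 were lower and 1 higher (median -0.33). The 3 relatives of bacterial S18 differed in their calls. Mrps18c fell, while Mrps18a, a large-subunit protein in mammals, changed by -0.05 ± 0.10 (SE, limma adjusted p = 0.791) and Mrps18b by -0.17 ± 0.25 (SE, limma adjusted p = 0.685). Mrpl12, the mobile protein of the stalk, changed by 0.21 ± 0.17 (SE, limma adjusted p = 0.38), Mrps12, of the decoding region, by -0.01 ± 0.10 (SE, limma adjusted p = 0.964), and Mrps30, which sits in the large subunit, by 0.26 ± 0.25 (SE, limma adjusted p = 0.508). None of these 5 passed.

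Of 8 members with more than 1 probe set, 3 had probe sets that differed in their call. For Mrpl23 the brighter one changed by -0.47 ± 0.17 (SE, limma adjusted p = 0.04999) and the other by -0.46 (limma adjusted p = 0.104). The call of the brighter one was lost when any 1 of 12 arrays was left out (limma adjusted p of 0.0524 to 0.147). For Mrpl41 they changed by -0.45 ± 0.11 (SE, limma adjusted p = 0.00731) and -0.26 (limma adjusted p = 0.053). Mrps36 is a member by its symbol, but its product is now described as a subunit of the oxoglutarate dehydrogenase complex. It changed by -0.29 ± 0.18 (SE, limma adjusted p = 0.25) in the brighter probe set and by -0.56 (limma adjusted p = 0.0335) in the other. Both probe sets of Mrpl51 (-0.57 and -0.54) and of Mrps5 (-0.35 and -0.38) were called lower. So were those of Mrpl27, but the dimmer one changed less, by -0.37 (limma adjusted p = 0.0107) against -0.70 in the brighter. Of the 29 members that fell 9 overlap another gene, and of 8 such genes measured 1 was lower and 2 were higher. Of all genes 17.2% were lower and 12.9% higher, and 8 genes are too few to set apart from these shares.

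Hypertonic medium moved few members in WT cells without Torin1. limma called 6 of 76 lower and 2 higher, where 4.3% of all genes were lower and 3.94% higher. The median change was 0.08, against 0.02 over all genes, and 30 of 76 members lay below 0. Blocking on the array numbers gave 9 lower and 6 higher calls, where 7.63% of all genes were lower and 7.4% higher. Mrpl23, at the exit of the nascent chain, read 11.04, 11.02 and 10.53 log2 in hypertonic and 11.69, 11.68 and 11.37 log2 in isotonic WT arrays. The groups did not overlap and the change was -0.71 ± 0.17 (SE, limma adjusted p = 0.0187). Its call did not survive leaving out isotonic WT array 1 (limma adjusted p = 0.0706), isotonic WT array 2 (0.067) or hypertonic WT array 4 (0.0528).

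Mrps15 read 10.19, 10.38 and 10.28 log2 in hypertonic and 10.88, 11.06 and 10.73 log2 in isotonic WT arrays. Every hypertonic array lay below every isotonic one, and this change of -0.61 ± 0.12 (SE, limma adjusted p = 0.00686) was the only one of the 8 calls to hold without each array. It is a call of the KO line as well, at -0.72. Mrpl24, Mrps10, Mrpl54 and Mrpl48 were also lower, with changes of -0.48, -0.46, -0.46 and -0.45. Each of these 4 calls was lost without any 1 of 4 to 7 arrays (limma adjusted p up to 0.175). Mrpl16, whose bacterial counterpart helps form the site of the entering tRNA, read 9.86, 9.94 and 10.04 log2 in hypertonic and 9.36, 9.55 and 9.57 log2 in isotonic WT arrays, and rose by 0.45 ± 0.12 (SE, limma adjusted p = 0.0301). Mrpl49 read 11.34, 11.26 and 11.04 log2 in hypertonic and 10.85, 10.89 and 10.88 log2 in isotonic WT arrays, and rose by 0.34 ± 0.10 (SE, limma adjusted p = 0.0446). Their arrays did not overlap, but the call of Mrpl16 was lost without any 1 of 5 arrays (limma adjusted p of 0.0607 to 0.113) and that of Mrpl49 without any 1 of 12 (0.0522 to 0.197). Leaving out 1 array at a time brought the total of 8 to 1 (number 2 of isotonic WT), 2 (number 1 of isotonic WT), 3 (number 1 or 2 of hypertonic WT), 4 (number 4 of isotonic WT) or 5 (number 1 of isotonic Torin1, or number 2 of isotonic KO), and it was 0 by limma with only these 2 groups in the fit. At an unadjusted p below 0.05 there were 22, against 22.7% of all genes. Of the 7 genes named for their roles (Mrpl12, Mrps12, Mrps18a, Mrps18b, Mrps18c, Mrps30 and Mrps36) none was called, with limma adjusted p of 0.209, 0.251, 0.154, 0.756, 0.986, 0.843 and 0.989 in that order.

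In WT cells pretreated with Torin1 the hypertonic change of the members had a median of 0.11, against 0.02 over all genes. limma called 0 of 76 in either direction, where 1.72% of all genes were lower and 1.65% higher, and 20 had an unadjusted p below 0.05, as did 16.6% of all genes. With the array numbers as a block 3 were higher and 2 lower, where 4.08% of all genes were higher and 3.78% lower. Torin1 itself moved no member by this test. In hypertonic medium the median difference was -0.02 with 11 members and 12.1% of all genes at an unadjusted p below 0.05, and 0.0573% of all genes were called in each direction. In isotonic medium the median was -0.08 with 3 such members and 2.99% such genes, and 0% of all genes were called. The difference between the hypertonic changes with and without Torin1 had a median of 0.07 and again no call, with 2 members and 2.02% of all genes at an unadjusted p below 0.05 and 0% of all genes called. The Torin1 arrays of number 4 lay lower for the members than those of numbers 1 and 2.

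**Figure D3:**
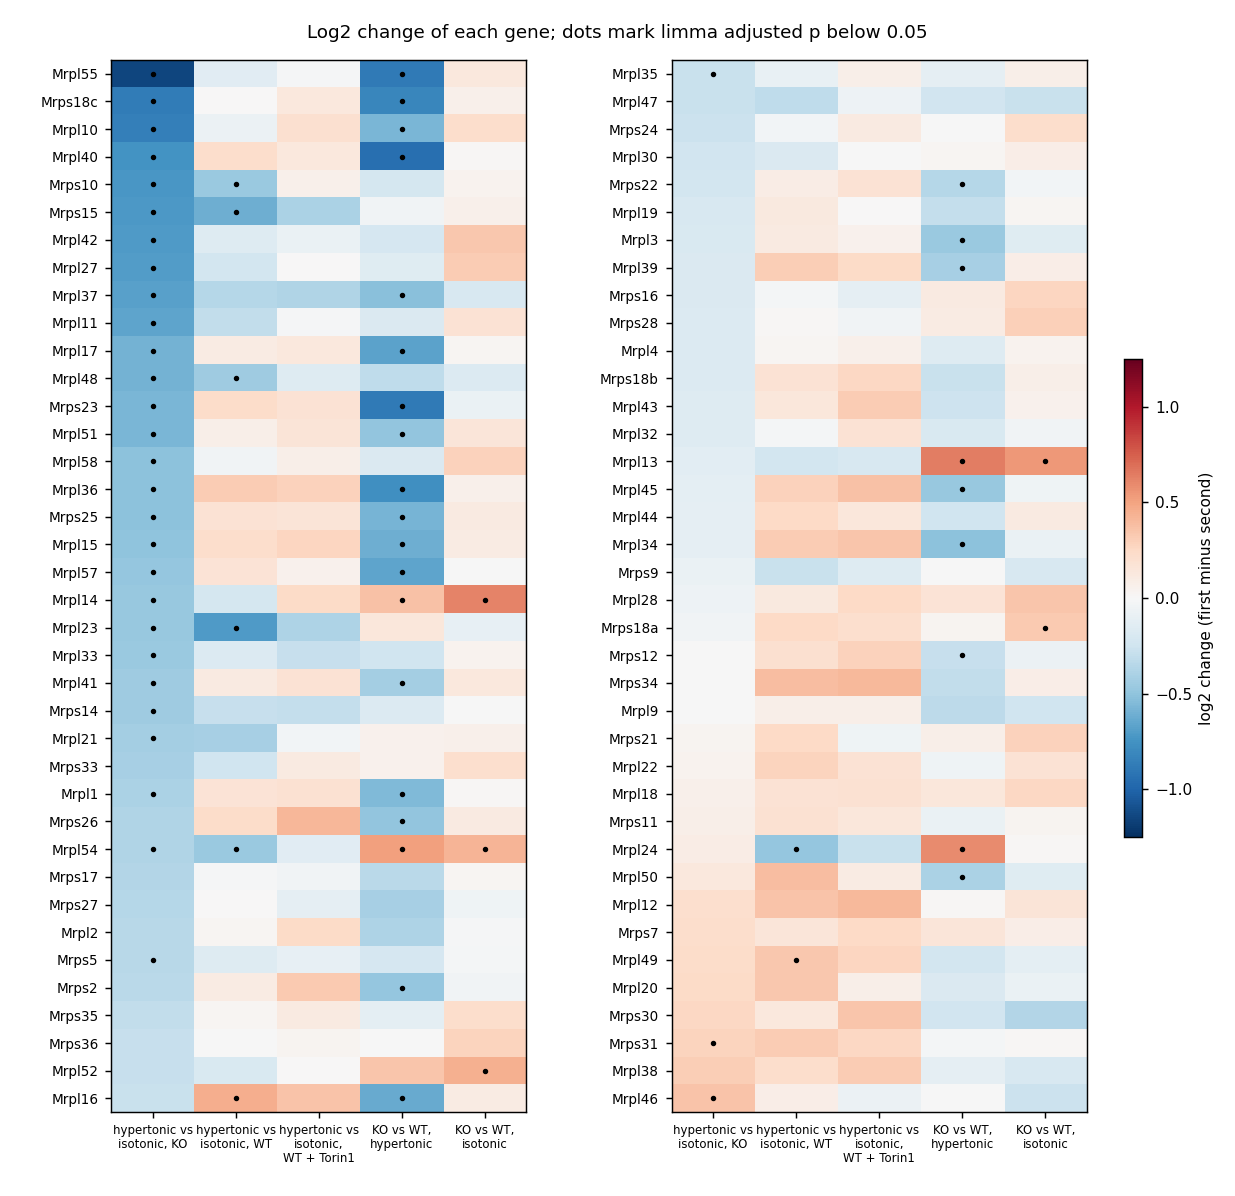
Log2 change of the 76 members in 5 comparisons, ordered by the change in KO cells, with dots at a limma adjusted p below 0.05. The column of hypertonic KO cells has 29 lower and 2 higher calls, that of WT cells 6 and 2, that of WT cells with Torin1 none, and the 2 columns of KO against WT have 24 lower and 4 higher calls in hypertonic medium and 5 higher calls in isotonic medium.

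In hypertonic medium many members had lower signals in KO than in WT cells. limma called 24 of 76 lower and 4 higher, where 18% of all genes were lower and 13.8% higher. Among the 10129 genes of the members' signal range 24% were lower. The median difference was -0.22, against 0.04 over all genes, and 59 members lay below 0. In 30 members all KO arrays lay below all WT arrays and in 5 above, against 23% and 21.8% of all genes. This comparison shares the hypertonic KO arrays with the comparison of media in KO cells.

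Mrpl40 read 9.51, 9.66 and 10.04 log2 in hypertonic KO arrays, against 10.63, 10.76 and 10.64 log2 in hypertonic WT arrays. The lines were well apart, with a difference of -0.94 ± 0.12 (SE, limma adjusted p = 2.65e-05). Mrps23, a mitochondria-specific small-subunit protein, read 9.58, 9.32 and 9.56 log2 in KO and 10.43, 10.49 and 10.20 log2 in WT arrays. Its difference was -0.88 ± 0.14 (SE, limma adjusted p = 0.000259) with no overlap. Mrpl55 read 8.41, 8.27 and 8.38 log2 in KO and 9.19, 9.29 and 9.23 log2 in WT arrays, a difference of -0.88 ± 0.09 (SE, limma adjusted p = 2.25e-06). The WT arrays of Mrpl55 lay close together, and no KO array came near them. Mrps18c (-0.82), Mrpl36 (-0.77), Mrpl17, at the exit of the nascent chain (-0.67), Mrpl57 (-0.66) and Mrpl16 (-0.63) followed. All 8 calls held without each array in turn, as did 16 of the 24.

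Higher in the KO line were Mrpl13, Mrpl24, Mrpl54 and Mrpl14. Mrpl13, an early protein of large-subunit assembly in bacteria, read 9.59, 9.64 and 9.55 log2 in hypertonic KO and 8.91, 8.89 and 9.06 log2 in hypertonic WT arrays, a difference of 0.64 ± 0.12 (SE, limma adjusted p = 0.000778). Mrpl24 read 9.61, 9.93 and 9.74 log2 in KO and 9.09, 9.07 and 9.36 log2 in WT arrays, a difference of 0.59 ± 0.13 (SE, limma adjusted p = 0.00267). Both sets of arrays were apart. Mrpl54 differed by 0.51 ± 0.13 (SE, limma adjusted p = 0.00708) and Mrpl14 by 0.37 ± 0.11 (SE, limma adjusted p = 0.0159). The call of Mrpl14 was lost without hypertonic KO array 2 (limma adjusted p = 0.0651). Of the genes named for their roles, Mrps12 differed by -0.28 ± 0.10 (SE, limma adjusted p = 0.0381), a call lost without any 1 of 4 arrays (limma adjusted p of 0.111 to 0.138). Mrpl12 (0.947), Mrps18a (0.825), Mrps18b (0.424), Mrps30 (0.505) and Mrps36 (0.997) did not pass, with limma adjusted p in parentheses.

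In isotonic medium few members were called between the lines. limma called 5 of 76 higher in KO cells and none lower, where 7.78% of all genes were higher and 6.84% lower, with a median difference of 0.06 against 0.02 over all genes. With the array numbers as a block 8 were higher and none lower, where 10.7% of all genes were higher and 10.2% lower. Mrpl14, which faces the small subunit, read 9.86, 9.76 and 9.56 log2 in isotonic KO and 9.0, 9.22 and 9.09 log2 in isotonic WT arrays, and Mrpl13 read 9.71, 9.85 and 9.63 log2 and 8.90, 9.22 and 9.44 log2 in the same groups. Both were higher in every KO array, by 0.62 ± 0.11 (SE, limma adjusted p = 0.000748) and 0.54 ± 0.12 (SE, limma adjusted p = 0.00496), and these 2 calls held without each array. Mrpl52 read 10.83, 10.64 and 10.81 log2 in isotonic KO and 10.41, 10.44 and 10.11 log2 in isotonic WT arrays, a difference of 0.44 ± 0.13 (SE, limma adjusted p = 0.0282). Its call was lost without isotonic WT array 4 (limma adjusted p = 0.125), isotonic KO array 1 (0.0986) or isotonic KO array 4 (0.0817). Mrpl54 (0.42) and Mrps18a (0.33) each lost their call without any 1 of 6 arrays (limma adjusted p up to 0.199). Without isotonic KO array 1, whose labels conflict, limma called 2 members, both higher, as it did without isotonic WT array 4. It called 3 when number 1 of isotonic WT or of isotonic Torin1 was left out.

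The hypertonic change of the members was lower in KO than in WT cells, tested as a difference of differences. limma called 14 of 76 lower and none higher, where 6.15% of all genes were lower and 3.35% higher, and 23 had an unadjusted p below 0.05, against 22.3% of all genes. With the array numbers as a block 18 members were lower and none higher, where 8.97% of all genes were lower and 5.54% higher. Among the 10129 genes of the members' signal range 8.43% were lower. The median difference was -0.27, against -0.01 over all genes, and 66 of 76 members lay below 0. The count was 10 without isotonic KO array 1 and 9 without hypertonic WT array 2. Mrpl55 had the lowest difference at -1.01 ± 0.12 (SE, limma adjusted p = 0.000347), with changes of -1.15 in KO and -0.14 in WT cells. Mrpl40 followed at -0.96 ± 0.17 (SE, limma adjusted p = 0.00302), with changes of -0.75 in KO and 0.22 in WT cells. Mrpl36 (-0.83), Mrpl10 (-0.78), Mrpl16 (-0.73) and Mrpl17 (-0.69) were next among the 8 calls that held without each array.

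Mrps18c differed by -0.88 ± 0.22 (SE, limma adjusted p = 0.0194), but the call was lost without isotonic KO array 1 (limma adjusted p = 0.0522) or hypertonic KO array 2 (0.0571). Mrps23 differed by -0.80 ± 0.20 (SE, limma adjusted p = 0.0224), a call lost without any 1 of 5 arrays (limma adjusted p of 0.0517 to 0.0657). Of the 29 members that fell in KO cells 12 had a called difference between the lines, and 5 were called lower in WT cells too. The remaining 2 of the 14 calls, Mrpl16 and Mrpl39, were not called in KO cells, where they changed by -0.28 and -0.18, and changed by 0.45 and 0.31 in WT cells. Over the 76 members 33 were below 0 in KO and above 0 in WT cells, 29 were below 0 in both, 13 above 0 in both and 1 above 0 in KO and below 0 in WT cells. The changes in the lines, which share no arrays, had a Pearson r of 0.47 and a Spearman rho of 0.49 across the 76 genes, given as a description.

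**Figure D4:**
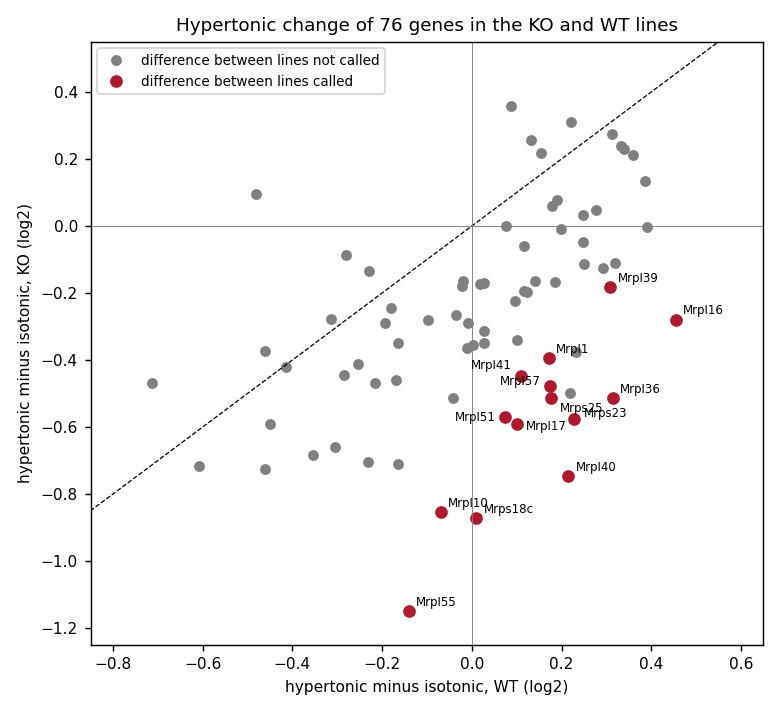
Hypertonic minus isotonic log2 change of each member in KO cells (vertical) against WT cells (horizontal), with the 14 members whose difference limma called in red and the line of equal change dashed. Of the 76 points 66 lie below the dashed line, and 33 lie in the quadrant below 0 in KO and above 0 in WT cells.

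Other nuclear genes of mitochondrial translation were read from lists of known function, whose counts in hypertonic against isotonic KO cells stand against 17.2% lower and 12.9% higher of all genes. Among 13 translation factors 6 were lower and none higher. They include the initiation factor Mtif2 (-1.20 ± 0.18 SE, limma adjusted p = 0.000139), the recycling factor Gfm2 (-1.02 ± 0.15 SE, limma adjusted p = 0.000149) and the elongation factor Guf1 (-0.82 ± 0.10 SE, limma adjusted p = 2.28e-05). Among 16 mitochondrial aminoacyl-tRNA synthetases, which load tRNAs with amino acids, 7 were lower and 2 higher. Rars2 (-1.32 ± 0.18 SE, limma adjusted p = 7.22e-05), Pars2 (-0.77) and Vars2 (-0.68) fell, and Mars2 (0.95) and Yars2 (0.59) rose. Of 24 assembly factors 6 were lower and 1 higher. Tfb1m, which methylates the small ribosomal RNA, changed by -2.10 ± 0.23 (SE, limma adjusted p = 1.35e-05), Fastkd2, which binds the large ribosomal RNA, by -0.81 and the GTPase Mtg2 by -0.80. The higher one was the GTPase Noa1 (0.85), a call lost without isotonic KO array 1 (limma adjusted p = 0.053) or 2 (0.0541).

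Of 4 mitoribosomal proteins with other names 1 was lower, Dap3 (-0.37 ± 0.12 SE, limma adjusted p = 0.0232). That call was lost without any 1 of 4 arrays (limma adjusted p of 0.0598 to 0.101). Of 41 nuclear subunits of oxidative phosphorylation 4 were lower and none higher, with a median of -0.11. Ndufs3 (-0.51) and Ndufv2 (-0.45), both of complex I, held without each array, whereas Uqcrb of complex III (-0.36) was lost without any 1 of 4 arrays (limma adjusted p of 0.0583 to 0.126). Among 9 genes of mitochondrial DNA replication and transcription Tefm (-1.13), an elongation factor of the mitochondrial RNA polymerase, and Ssbp1 (-0.62) fell, and the polymerases Polrmt (0.82) and Polg (0.41) rose. Among 10 nuclear factors of mitochondrial gene expression 4 rose and none fell. Nrf1 (0.84 ± 0.12 SE, limma adjusted p = 0.000115) and Yy1 (0.78 ± 0.11 SE, limma adjusted p = 7.41e-05), whose motifs were read in the promoters, rose with each array left out. So did Gabpb1 (0.49), the partner subunit of GABP, while its DNA-binding subunit Gabpa changed by 0.25 ± 0.11 (SE, limma adjusted p = 0.0945), which did not pass. Pprc1 (0.64) was lost without isotonic KO array 1 (limma adjusted p = 0.0677) or hypertonic KO array 2 (0.0631).

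**Figure D5:**
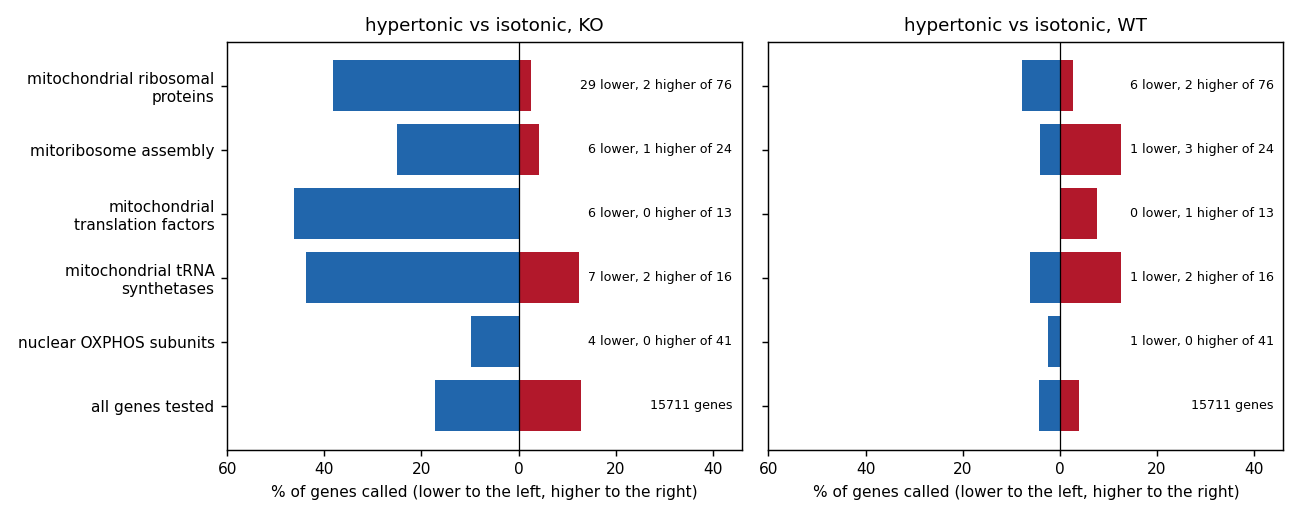
Share of genes called lower (blue, to the left) and higher (red, to the right) by limma in hypertonic against isotonic medium, in KO cells on the left and WT cells on the right, for the 76 members, 4 further lists and all genes tested. The members have 29 lower and 2 higher calls in KO cells and 6 lower and 2 higher calls in WT cells.

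The same lists were read in hypertonic KO against hypertonic WT cells, where 18% of all genes were lower and 13.8% higher. Of the 13 translation factors 6 were lower and none higher, led by the release factor Mtrf1l (-0.93 ± 0.11 SE, limma adjusted p = 1.09e-05). Mtrf1l was also called lower in isotonic medium (-0.37), a call lost without any 1 of 4 arrays. Of the 24 assembly factors 9 were lower and 1 higher, with Tfb1m at -1.59 and the GTPases Gtpbp10 at -1.17 and Mtg1 at -0.78. The RNA-binding protein Slirp was the higher one (0.61), and it was higher in isotonic medium as well (0.68). Of the 16 synthetases 5 were lower and none higher, led by Pars2 (-1.23), Nars2 (-1.01) and Rars2 (-0.69). The 41 subunits of oxidative phosphorylation had 8 higher calls and 1 lower, with Atp5o at 0.65, and 4 of the 8 held without each array. In isotonic medium 5 subunits were higher in KO cells too, where 7.78% of all genes were higher, and 3 of these calls held. Atp5o stood at 0.55 there, a call lost without any 1 of 4 arrays (limma adjusted p of 0.0919 to 0.165). Of the 4 mitoribosomal proteins with other names 2 were lower and none higher, Gadd45gip1 (-0.69) and Ptcd3 (-0.33). The call of Ptcd3 was lost without any 1 of 5 arrays. Gadd45gip1 was lower in isotonic medium too (-0.54), and both its calls held. The nuclear factors had 4 higher calls and 1 lower. Genes of mitochondrial DNA replication and transcription had 3 lower calls and none higher. For the difference between the lines in the hypertonic change, Mtrf1 (-0.99 ± 0.18 SE, limma adjusted p = 0.00396), Guf1 (-0.84), Pars2 (-1.11), Tefm (-1.31) and Ssbp1 (-0.95) were lower and Yy1 (0.77) and Gabpb1 (0.77) higher, and these calls held without each array in turn. The difference of Tfb1m (-1.38 ± 0.33 SE, limma adjusted p = 0.0167) was lost without hypertonic WT array 2 (limma adjusted p = 0.0531).

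Hypertonic KO arrays had a median over all genes of 7.53 to 7.57 log2, against 7.64 to 7.74 log2 in the other arrays. Each array was then centred on its median over the genes that passed the filter. This moved the median change of all genes tested in KO cells to 0.20, against 0.02 on the deposited values. The members' median moved to -0.11. Relative to all genes the members' median was -0.30 on the deposited values. Centring shifts all genes of an array alike and so cannot change this value. After quantile normalization it was -0.23. With centring 21 members were lower and 5 higher, and with quantile normalization 22 and 2. For hypertonic KO against WT cells the members' median relative to all genes was -0.26, which centring again cannot change. After quantile normalization it was -0.16. With centring 15 members were lower and 8 higher. The shares of all genes called after centring or quantile normalization are not given here, and those of the deposited values do not apply. These counts are therefore not set against a background.

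Across the 6 group means, the members with the widest range were Mrpl55 (1.15), Mrpl37 (0.96) and Mrpl40 (0.94), and the narrowest was Mrpl4 (0.17). In all, 46 members were called in at least 1 comparison and 30 in none. The share of all genes called in at least 1 comparison is not given, so this count has no background. Hypertonic against isotonic KO alone called 30.1% of all genes, and hypertonic KO against WT 31.9%. The genes outside the family whose 6 group means were most like the members' mean profile were Abcb8 (Pearson r 0.997), Derl2 (0.996), Lysmd2 (0.991), Zfp78 (0.990) and Usp46 (0.989). These r describe 6 means, of which hypertonic KO is the lowest, and carry no test.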

How the data were processed

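The deposited values are log2 signals of 34760 probe sets, which the authors made with RMA in R 2.11.1, per the submitters' processing notes, and no step was added. Background correction and normalization within RMA are not further described, and a genome build was not given in the sources used here. Array medians over all probe sets were 6.96 to 7.13 log2, and scaling between arrays can hide a shift common to most genes. A probe set was used where the platform annotation names 1 gene (21640 probe sets, 1321 name several), and 1 probe set a gene was kept, that with the highest mean over 18 arrays. Genes whose highest group mean was above the 30th percentile (5.86 log2) were tested. Gene names, neighbours and promoter windows come from RefSeq tables of GRCm38.p6. All 76 members matched by gene ID.

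limma 3.58.1 in R 4.3.3 fitted all 18 arrays with 1 mean for each group, which leaves 12 residual degrees of freedom, and tested 9 contrasts with Benjamini-Hochberg adjustment over 15711 genes. Calls are at an adjusted p below 0.05. Arrays give no depth, and 3 per group limit the precision. The fit was tested on simulated data with independent arrays. For hypertonic against isotonic WT it recovered 34 of 100 changes of 0.5 log2 and 86 of 100 changes of 1 log2, with 1 false call. Small changes can therefore go uncalled.

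The members and lists were chosen with earlier results of these data known. Named members are the calls of each comparison, at most the 8 largest a direction with array values for at most 3, those with the highest, lowest and widest-ranging signals, 7 genes of known role, members whose probe sets disagree, at most 3 called genes a direction of other lists, and the 5 genes most like the mean profile. The text leaves some out and adds single further members, and Mrpl58, Mrpl11 and Mrpl4 were chosen after their values were seen. The motif and partner counts were likewise added after the data were seen.

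The numbers 1, 2 and 4 were checked for pairing, since the labels do not explain them. With the group means taken out, same-numbered arrays of compared groups correlated at 0.156 to 0.847 over the genes, so by this check the numbers pair the arrays. Between a KO and a WT array these r were weaker, at 0.156 to 0.361. All p-values come from the fit without a block and so leave this pairing out. Counts with the number as a block are given beside those they move, except for hypertonic KO against isotonic KO and against WT. The block counts of these 2 comparisons stand in the closing section on processing. Alternatives were no filter, a stricter filter at the 50th percentile, averaging the probe sets of a gene, centring, quantile normalization, a trended and robust prior, only the groups compared, the replicate block, number 4 left out and each array left out.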

Additional observations from a re-analysis of the deposited data

Results flagged for a closer look

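The hypertonic change of 14 members differed between KO and WT cells by a direct limma test of that difference, KO minus WT, and each was lower in KO cells. The values were -1.01 for Mrpl55, -0.96 for Mrpl40, -0.88 for Mrps18c, -0.83 for Mrpl36, -0.80 for Mrps23, -0.78 for Mrpl10 and -0.73 for Mrpl16. The others were -0.69 for Mrpl17, -0.69 for Mrps25, -0.65 for Mrpl57, -0.64 for Mrpl51, -0.57 for Mrpl1, -0.56 for Mrpl41 and -0.49 for Mrpl39. By the same test 6.15% of all genes were lower and 3.35% higher. Among the 10129 genes of the members' signal range 8.43% were lower by it. Without hypertonic WT array 2 the calls of Mrps25 and Mrpl57 were lost (limma adjusted p = 0.0576 and 0.0531). Those of Mrpl41 and Mrpl39 were lost without any 1 of 12 and 11 arrays (limma adjusted p up to 0.109), and the second probe set of Mrpl41 did not pass (-0.33, limma adjusted p = 0.145). The losses of Mrps18c and Mrps23 are given with their results above. Without isotonic KO array 1, whose labels conflict, 10 members were called.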

How the results depend on the processing

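With the array numbers as a replicate block the members called were 15 in the hypertonic change of WT cells, 5 in that of WT cells with Torin1 and 8 in isotonic KO against WT cells, against 8, 0 and 5 without it. The block ended no call of the 29 falls in KO cells, and the hypertonic KO counts with it were 35 lower and 3 higher against isotonic KO (20.5% and 15.9% of all genes) and 30 lower and 5 higher against WT (22% and 17.2%). The 102 values of named members checked with the block stayed on the same side of the threshold. Without the arrays of number 4 the first 3 counts were 15, 4 and 13, where 21.2%, 9.95% and 24.2% of all genes were called, and the difference between the lines had 22 calls, where 17.9% of all genes were called. With only the groups compared in the fit, the count was 0 in WT cells and 2 in isotonic KO against WT cells.

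Centring each array moved the members' median to -0.11 for KO cells, -0.048 for hypertonic KO against WT and -0.11 for the difference between the lines, and quantile normalization moved that of hypertonic KO against WT to -0.13. These 4 medians kept their sign. No filter, the 50th percentile, the mean of the probe sets and the trended prior left all counts and medians close to those reported.

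With each array left out in turn, calls ranged from 23 to 33 in KO cells, 1 to 9 in WT cells and 0 to 2 with Torin1. They ranged from 20 to 31 in hypertonic and 2 to 7 in isotonic KO against WT. For the difference between the lines they ranged from 9 to 15, and in the 3 Torin1 comparisons they were 0. Shares of all genes called without single arrays, or with only the groups compared, are not given, here or above. These counts therefore do not show whether the members moved more than other genes. The members' medians ranged from -0.30 to -0.24 in KO cells, 0.04 to 0.10 in WT cells, 0.033 to 0.18 with Torin1, -0.25 to -0.18 and 0.01 to 0.11 in hypertonic and isotonic KO against WT, and -0.33 to -0.21 for the difference between the lines. They ranged from -0.06 to 0.04 and -0.13 to 0.01 for Torin1 in hypertonic and isotonic medium, and from -0.034 to 0.14 for its difference. For single named members the other alternatives gave 890 values on the same side of the threshold, 20 that lost and 8 that gained a call, and none changed sign.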
